A study of Mus musculus with 16 samples.

Results

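The genes described here were the variable (V) gene segments of the immunoglobulin loci, measured by RNA-seq in the inguinal white adipose tissue (iWAT) of mice. They were all genes with a symbol beginning with Ighv, Igkv or Iglv that had at least 10 counts summed over the 16 libraries. This gave 201 segments among the 348 V segments and 54752 genes of the count table, with 102 from the heavy chain locus (Ighv), 96 from the kappa light chain locus (Igkv) and 3 from the lambda light chain locus (Iglv). Of the other V segments, 113 had no count and 34 had 1 to 9 counts. The members were thus chosen by their summed count, which is given only as a description. Just inside the limit were Ighv1-21, Ighv1-43 and Igkv4-71 with 10 counts each, and just outside it Igkv1-115, Igkv12-40 and Igkv2-116 with 9 counts each.

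The iWAT came from 4 genotypes with 4 libraries each, and each library was a separate mouse. WT mice had no mutation. Lepob/+ mice were heterozygous for the ob allele of the leptin gene, which gives no working leptin. SOD1G93A mice held many copies of a mutant human SOD1 transgene and are a model of amyotrophic lateral sclerosis, and SOD1G93A-Lepob/+ mice had both. All were labelled as female C57BL/6 mice of 90 days, bred from Lepob/+ females and SOD1G93A males, so each mutation was present in the whole body and not in B cells or adipocytes alone. SOD1G93A-Lepob/+ replicate 3 went against its label, with 0 counts of Xist and 1756 counts of Y chromosome genes, where the other 15 libraries had 11895 to 28034 Xist counts and 0 counts of Y genes. Genotype means of V segment amount and breadth and the comparisons of this genotype are therefore also given without it.

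Antibodies are made of paired heavy and light chains. In each developing B cell, 1 V segment of a locus is joined to a short joining segment (with a diversity segment between them in the heavy chain), and the joined exon is transcribed together with a constant region such as Ighm (IgM) or Igkc (kappa). Every B cell clone thus uses its own heavy and light V segments, a tissue with many different clones transcribes many V segments, and plasma cells, the antibody-secreting descendants of B cells, hold far more immunoglobulin mRNA per cell than resting B cells. In bulk tissue, fewer B cells and less immunoglobulin RNA per cell cannot be told apart, and the counts do not say which heavy and light segments came from the same cell.

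The ends of the germline V exons that most set the libraries apart are shown here, since this is the stretch that meets the joined segments. Each line gives the last 90 bases of the exon, 5′ to 3′ on the coding strand, from the GRCm38 genome with GENCODE M21 annotation. Capitals mark the codon of the last in-frame cysteine, the conserved residue in front of the third hypervariable loop. The first 4 pairs are the heavy and light segments with the most counts in Lepob/+ replicate 3, SOD1G93A replicate 2, SOD1G93A replicate 3 and SOD1G93A-Lepob/+ replicate 3. The next pair stood out in WT replicate 3, and Igkv1-117 was the segment detected in the most libraries.
Ighv5-4 (chr12:113597446-113597535, minus strand): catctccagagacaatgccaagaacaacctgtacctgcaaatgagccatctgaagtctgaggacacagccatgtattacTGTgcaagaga
Igkv13-84 (chr6:68939978-68940067, plus strand): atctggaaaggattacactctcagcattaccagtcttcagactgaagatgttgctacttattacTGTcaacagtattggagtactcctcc
Ighv1-76 (chr12:115847881-115847970, minus strand): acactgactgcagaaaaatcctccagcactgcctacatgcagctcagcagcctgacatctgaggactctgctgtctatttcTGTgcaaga
Igkv14-111 (chr6:68256780-68256869, plus strand): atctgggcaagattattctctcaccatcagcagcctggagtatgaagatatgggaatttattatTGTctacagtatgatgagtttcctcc
Ighv1-36 (chr12:114879888-114879977, minus strand): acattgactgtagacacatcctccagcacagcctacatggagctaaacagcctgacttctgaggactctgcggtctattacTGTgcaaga
Igkv4-59 (chr6:69438218-69438307, minus strand): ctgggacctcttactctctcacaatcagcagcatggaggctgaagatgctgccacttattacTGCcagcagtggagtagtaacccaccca
Ighv3-6 (chr12:114288152-114288241, minus strand): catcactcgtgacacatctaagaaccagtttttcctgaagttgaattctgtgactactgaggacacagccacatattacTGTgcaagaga
Iglv1 (chr16:19085017-19085106, minus strand): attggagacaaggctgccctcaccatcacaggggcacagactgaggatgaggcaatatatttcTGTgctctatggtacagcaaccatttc
Ighv11-2 (chr12:114048241-114048330, minus strand): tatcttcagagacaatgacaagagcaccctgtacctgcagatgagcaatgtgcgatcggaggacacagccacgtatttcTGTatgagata
Igkv14-126 (chr6:67896553-67896642, plus strand): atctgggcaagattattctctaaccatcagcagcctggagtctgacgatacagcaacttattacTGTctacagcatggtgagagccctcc
Igkv1-117 (chr6:68121738-68121827, plus strand): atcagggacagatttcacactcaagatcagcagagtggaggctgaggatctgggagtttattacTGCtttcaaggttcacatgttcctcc
Igkv1-110 (chr6:68271178-68271267, plus strand): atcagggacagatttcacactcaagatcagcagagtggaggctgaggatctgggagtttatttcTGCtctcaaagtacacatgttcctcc

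The lines show how much V segments share. Igkv1-117 and Igkv1-110 were identical over 97.2% of their coding bases, and Igkv14-111 and Igkv14-126 over 91.5%. The heavy segments Ighv1-76 and Ighv1-36, both of the large Ighv1 family, were identical over 85.5%. Iglv1 and Iglv2 were identical over 96.9%, while Iglv1 and Iglv3 shared 56.8%. A 100-base read can therefore fall on a stretch that several segments hold, and only uniquely mapped reads were counted. Of the 201 segments, 123 shared no 100-base window with another V segment, and these held 50.5% of all V counts. Of the segments printed above, Igkv13-84 shared 37.9% of its windows, Igkv4-59 20.4%, Ighv11-2 17.4%, Igkv1-110 16.2%, Igkv1-117 16.1% and Iglv1 1.71%. Counts of these are less certain, but reads were paired and the share of windows does not give the size of the error. Ighv5-4 shared none.

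The segments lay in the GRCm38 genome at chr12:113572927-116010093 (Ighv), chr6:67555497-70704177 (Igkv) and chr16:19085017-19260859 (Iglv), as spanned by all annotated V segments of each locus. Igkv segments held 34182 of the counts of annotated functional segments, Ighv segments 16581 and Iglv segments 3002. The 8 members annotated as pseudogenes held 71 counts in Ighv and 105 in Igkv. The exon lengths of the members ranged from 313 to 501 bases with a median of 359, so that counts of different segments differed little through length. With counts set per length, the leading segment was the same in 15 of the 16 libraries. In Lepob/+ replicate 3 it was Igkv13-84 per length and Ighv5-4 by counts.

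The libraries held 36795376 to 61886313 gene counts each, so the V segments were a small part of every library. Summed over the white adipocyte list the libraries had 11844 to 28307 counts per 1e6 gene counts (CPM), so markers of the labelled tissue were high in all of them. Markers of other tissues varied widely between libraries. The T cell list summed to 486 to 1008 CPM in 6 libraries (WT replicates 1 and 2, Lepob/+ replicate 3, and SOD1G93A replicates 1, 2 and 4) and to 12.5 to 35.9 CPM in the other 10, and genes of lymph node stroma and of its high endothelial venules summed to 504 to 1076 CPM against 8.57 to 49.0 CPM. Glycam1, a mucin of high endothelial venules, had 8931 to 25444 counts in the 6 and 0 to 3 counts in the 10. Skeletal muscle genes reached 150810 CPM in Lepob/+ replicate 4. The part of these other tissues in the V segment values was not tested.

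The amount of V segment RNA differed far more between mice than between genotypes, except that all 4 SOD1G93A-Lepob/+ libraries were low. Summed V counts were 4265, 3241, 567 and 676 in WT replicates 1 to 4, 454, 194, 11599 and 715 in Lepob/+ mice, 4766, 17287, 1608 and 6815 in SOD1G93A, and 404, 883, 281 and 186 in SOD1G93A-Lepob/+. In CPM these were 88.0, 73.8, 14.6 and 17.9 in WT, 9.13, 4.74, 281.7 and 23.8 in Lepob/+ mice, 101.6, 390.4, 27.8 and 157.3 in SOD1G93A, and 8.94, 22.1, 6.37 and 5.22 in SOD1G93A-Lepob/+. The same 6 libraries that were high in T cell and lymph node genes were the highest here, at 73.8 to 390.4 CPM, and the other 10 lay at 4.74 to 27.8 CPM.

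By genotype the summed V level was 48.6 ± 37.8 CPM in WT, 79.9 ± 134.8 CPM in Lepob/+ mice, 169.3 ± 156.7 CPM in SOD1G93A mice and 10.6 ± 7.76 CPM in SOD1G93A-Lepob/+ (mean ± SD of 4 mice). The SD exceeded the mean in Lepob/+ mice, where replicate 3 alone was high, and the mean without it was 12.6 CPM. Without SOD1G93A replicate 2 the SOD1G93A mean was 95.6 CPM, and without SOD1G93A-Lepob/+ replicate 3 the mean of that genotype was 12.1 CPM. The SOD1G93A-Lepob/+ libraries all lay below the SOD1G93A libraries, with 22.1 CPM as the highest of the first and 27.8 CPM as the lowest of the second. They overlapped with WT and with Lepob/+. Heavy chain segments made up 25.8% to 41.6% of V counts in all libraries, so the split between heavy and light chains varied much less than the amount.

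**Figure D1:**
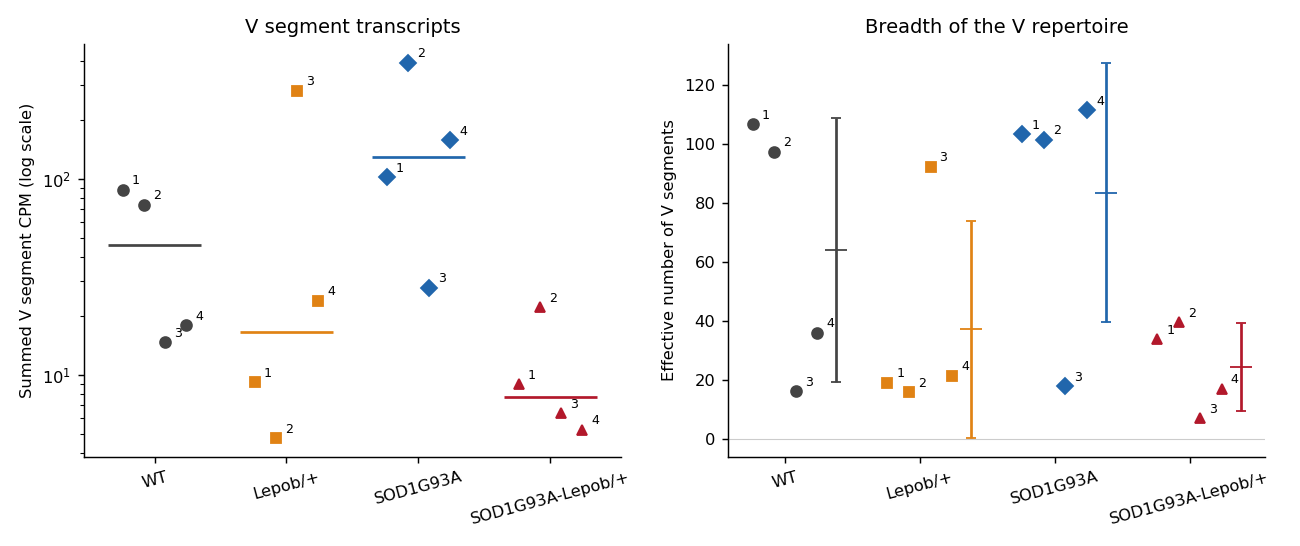
Amount and breadth of V segment RNA in iWAT. Left, summed V segment CPM (log axis) in each of the 16 libraries by genotype, with the replicate number beside each point and a line at the median of the genotype. Right, the effective number of V segments in each library, with the mean ± SD of the 4 libraries of a genotype. The 6 libraries with 73.8 CPM or more are also those with an effective number of 92.3 or more, and all 4 SOD1G93A-Lepob/+ libraries are low on both axes.

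The breadth of the repertoire followed the same line between libraries. The number of members with at least 1 count was 174, 157, 31 and 65 in WT replicates 1 to 4, 39, 25, 194 and 42 in Lepob/+ mice, 174, 196, 59 and 185 in SOD1G93A, and 46, 66, 20 and 26 in SOD1G93A-Lepob/+. Between 157 and 196 of the 201 segments were thus detected in the 6 libraries and 20 to 66 in the other 10. A segment with 0 counts could still make up to 1.61% of the V counts in the shallowest library (SOD1G93A-Lepob/+ replicate 4) and up to 0.0174% in the deepest (SOD1G93A replicate 2), taking 3 counts as the limit. These limits, like the intervals on shares below, cover counting error only.

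The difference was also present at equal depth. When each library was reduced to 186 V counts, the number in the lowest library, by the exact expectation of drawing without replacement, the expected number of detected segments was 88.2, 84.2, 26.5 and 48.8 in WT, 32.9, 24.9, 82.4 and 34.2 in Lepob/+ mice, 86.7, 84.4, 34.0 and 89.5 in SOD1G93A, and 42.3, 49.4, 18.5 and 26.0 in SOD1G93A-Lepob/+. The 6 libraries lay at 82.4 to 89.5 and the other 10 at 18.5 to 49.4, with no overlap at equal depth. The genotype means at equal depth were 61.9 ± 29.6 in WT, 43.6 ± 26.2 in Lepob/+ mice, 73.7 ± 26.5 in SOD1G93A mice and 34.1 ± 14.3 in SOD1G93A-Lepob/+ (mean ± SD of 4 mice). The last mean was 39.2 without SOD1G93A-Lepob/+ replicate 3. Every genotype but SOD1G93A-Lepob/+ had libraries on both sides.

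The effective number of segments, the exponential of the Shannon entropy, states how many equally used segments would give the same evenness. It was 106.7, 97.4, 16.1 and 35.9 in WT, 18.9, 15.6, 92.3 and 21.4 in Lepob/+ mice, 103.3, 101.5, 17.7 and 111.5 in SOD1G93A, and 33.6, 39.4, 6.87 and 16.9 in SOD1G93A-Lepob/+. Lepob/+ replicate 3 and SOD1G93A replicate 3 each stood apart from the other libraries of their genotype, the first broad among narrow libraries and the second narrow among broad ones. The means were 64.0 ± 44.8 in WT, 37.0 ± 36.9 in Lepob/+ mice, 83.5 ± 44.1 in SOD1G93A mice and 24.2 ± 15 in SOD1G93A-Lepob/+ (mean ± SD of 4 mice). Leaving out Lepob/+ replicate 3 gave 18.6 for Lepob/+, and leaving out SOD1G93A-Lepob/+ replicate 3 gave 30.0 for that genotype. The SOD1G93A and SOD1G93A-Lepob/+ libraries overlapped, through SOD1G93A replicate 3.

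Heavy and kappa segments showed the same difference when taken on their own. The effective number of Ighv segments was 42.2 to 61.1 in the 6 libraries, and it was 7.36 and 15.1 in WT replicates 3 and 4, 11, 8.17 and 12 in Lepob/+ replicates 1, 2 and 4, 5.96 in SOD1G93A replicate 3, and 16.8, 17.6, 2.27 and 6.92 in SOD1G93A-Lepob/+. For Igkv segments it was 50.1 to 58.9 in the 6, and 7.86 and 20.1, then 8.65, 8.70 and 9.03, then 11.1, and then 17.3, 21, 8.93 and 8.91 in the same order of the other 10. The kappa repertoire of SOD1G93A-Lepob/+ replicate 3 thus lay within the range of the other narrow libraries, while its heavy repertoire was the narrowest of all 16 libraries.

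A small number of segments carried most V counts in the 10 libraries. The smallest number of segments that together held 50% of the V counts was 29, 25, 5 and 9 in WT, 4, 4, 23 and 5 in Lepob/+ mice, 27, 25, 3 and 30 in SOD1G93A, and 10, 11, 2 and 5 in SOD1G93A-Lepob/+. The 5 most abundant segments together held 16.4%, 16.8%, 58.9% and 37.0% in WT, 57.3%, 56.2%, 23.5% and 51.5% in Lepob/+ mice, 18.1%, 17.1%, 61.3% and 15.7% in SOD1G93A, and 31.7%, 31.8%, 81.9% and 53.2% in SOD1G93A-Lepob/+. In SOD1G93A-Lepob/+ replicate 3, 2 segments were enough for 50%, against 30 in SOD1G93A replicate 4.

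**Figure D2:**
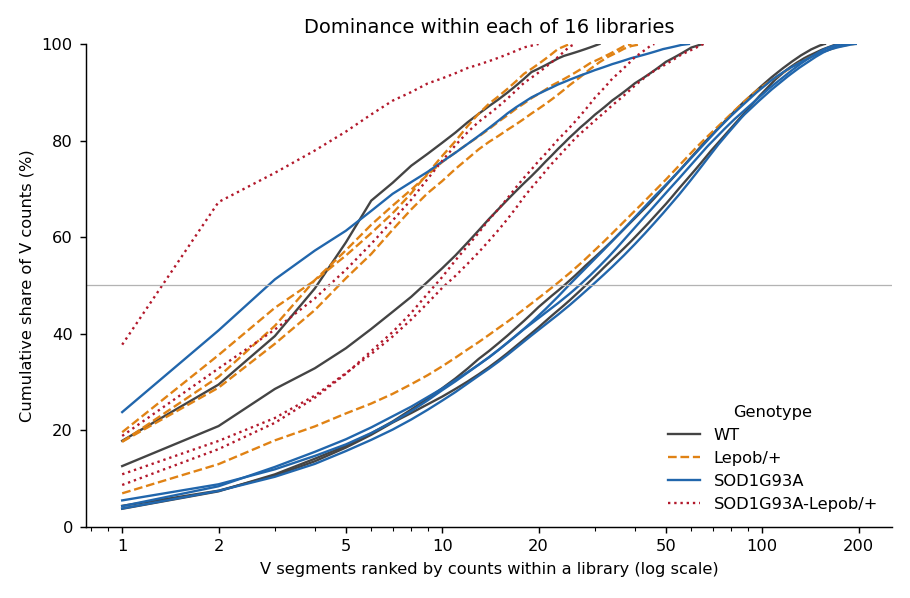
Cumulative share of V counts (%) against the rank of the segment (log axis), with 1 line for each of the 16 libraries coloured by genotype and a grey line at 50%. In 6 libraries the lines rise slowly and cross 50% at 23 to 30 segments, while those of the other 10 cross it at 2 to 11 segments, and lines of WT, Lepob/+ and SOD1G93A are found on both sides.

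There were 10 different leading segments, those with the most counts of a library, over the 16 libraries. Igkv1-117 led in 4 libraries, Iglv1 in 3, Igkv6-15 in 2 and the 7 others in 1 each. In WT replicates 1 to 4 the leader was Igkv1-117 with 4.34% of V counts (95% Wilson interval 3.77% to 4.99%), Iglv1 with 3.73%, Igkv14-126 with 17.8% (14.9% to 21.2%) and Igkv6-15 with 12.6% (10.3% to 15.3%). In Lepob/+ it was Igkv1-117 with 17.6% (14.4% to 21.4%), Igkv4-68 with 19.6% (14.6% to 25.7%), Ighv5-4 with 6.93% (6.48% to 7.41%) and Igkv8-28 with 17.6% (15% to 20.6%). The 6 broad libraries had leaders at 3.73% to 6.93%, and none of their intervals reached the leaders of the WT or Lepob/+ libraries with few V counts.

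In SOD1G93A the leaders were Igkv1-117 with 4.28%, Igkv14-111 with 5.47% (5.14% to 5.82%), Ighv1-36 with 23.8% (21.7% to 25.9%) and Iglv1 with 3.79%. In SOD1G93A-Lepob/+ they were Igkv5-39 with 8.66% (6.30% to 11.8%), Igkv1-117 with 10.9% (8.99% to 13.1%), Iglv1 with 37.7% (32.3% to 43.5%) and Igkv6-15 with 18.8% (13.9% to 25%). The mean share of the leader was 9.61% ± 6.79 in WT, 15.4% ± 5.75 in Lepob/+ mice, 9.32% ± 9.65 in SOD1G93A mice and 19.0% ± 13.2 in SOD1G93A-Lepob/+ (mean ± SD of 4 mice), and the genotypes overlapped. Without SOD1G93A-Lepob/+ replicate 3 the last mean was 12.8%, and without SOD1G93A replicate 3 the SOD1G93A mean was 4.51%.

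**Figure D3:**
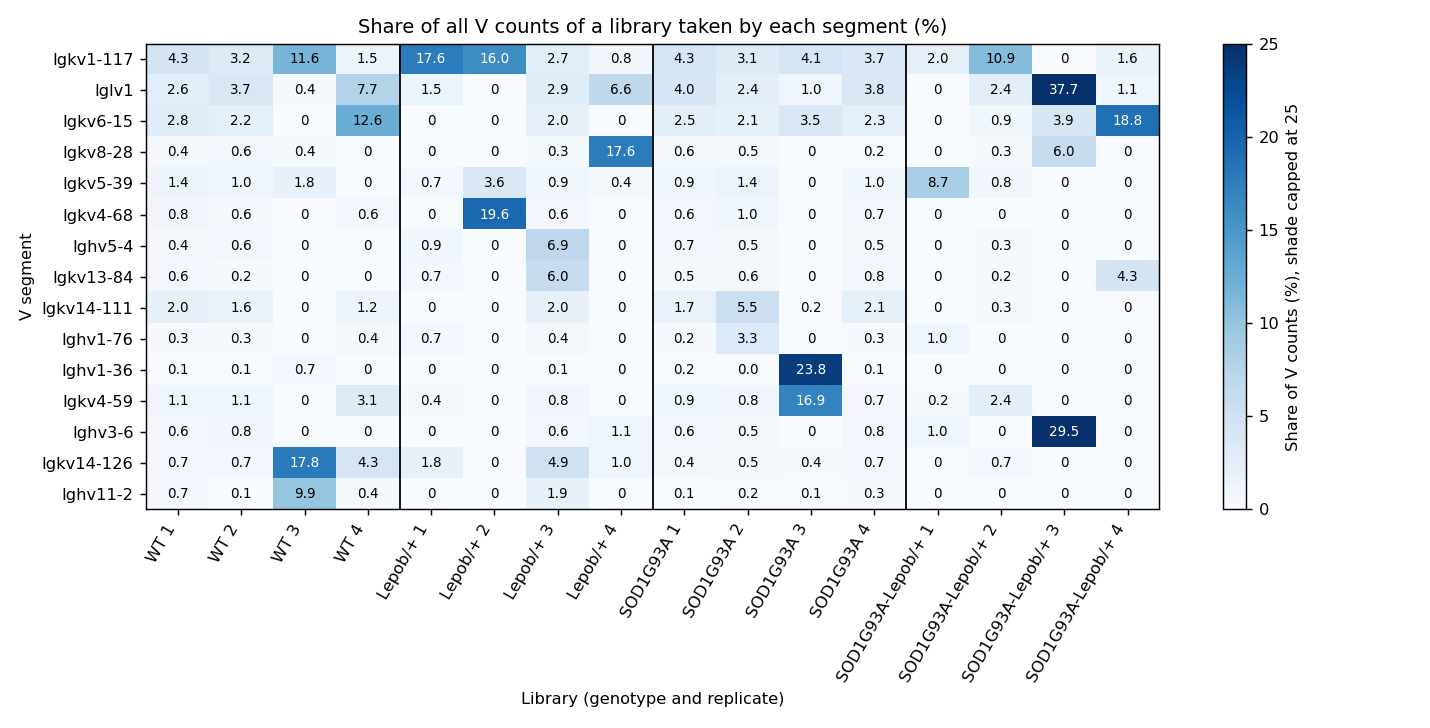
Share of V counts (%) of 15 V segments (rows) in the 16 libraries (columns, ordered by genotype and replicate). Darker cells are larger shares, and the shade stops at 25%, which only Iglv1 and Ighv3-6 of SOD1G93A-Lepob/+ replicate 3 exceed. Among these rows, Igkv1-117 and Igkv6-15 exceed 10% in more than 1 library.

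The most abundant heavy and light segments came up together in some libraries. In 6 of the 16 libraries the leader and the runner-up were 1 heavy and 1 light segment, and in the other 10 both were light segments. Runner-up segments and the leading heavy segment of each library were named here after their values were seen, where they are not leaders over all V segments.

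SOD1G93A replicate 3 had the strongest heavy chain leader outside SOD1G93A-Lepob/+. Its Ighv1-36 had 382 counts, which was 57.1% of its Ighv counts (53.3% to 60.8%). In the other libraries this segment had 3, 4, 4 and 0 counts in WT, 0, 0, 10 and 0 in Lepob/+ mice, 8, 6 and 6 in SOD1G93A, and 0 in all SOD1G93A-Lepob/+ libraries. Of all counts of Ighv1-36, 90.3% came from that 1 mouse. Igkv4-59 was its leading light segment with 272 counts, 29.8% of its Igkv counts, and the highest value of Igkv4-59 elsewhere was 144 counts in SOD1G93A replicate 2.

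SOD1G93A-Lepob/+ replicate 3, the library without Xist counts, had 106 counts of Iglv1 and 83 of Ighv3-6 among 281 V counts. Together they made up 67.3% of its V counts. Ighv3-6 held 78.3% of its Ighv counts (69.5% to 85.1%), and it had 4, 0 and 0 counts in the other libraries of the genotype. Iglv1 was the only lambda segment with a count there, and lambda segments were 60.6% of its light chain counts. Iglc1, a lambda constant region, had 103 counts in this library.

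Lepob/+ replicate 3 and SOD1G93A replicate 2, the libraries with the most V counts, were broad and still had a leading pair. In Lepob/+ replicate 3, Ighv5-4 had 804 counts and Igkv13-84 had 701, while in the other Lepob/+ libraries the first had 4, 0 and 0 counts and the second 3, 0 and 0. This mouse held 81.0% of all Ighv5-4 counts and 76.1% of all Igkv13-84 counts. It also had 4702 counts of Ighg2b (114.2 CPM), the constant region of IgG2b, where Ighg2b had 0 to 192 counts in the 14 libraries other than this one and SOD1G93A replicate 2.

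In SOD1G93A replicate 2, Igkv14-111 had 945 counts and Ighv1-76 had 577. The other SOD1G93A libraries had 83, 3 and 142 counts of Igkv14-111 and 10, 0 and 18 of Ighv1-76. Of all Ighv1-76 counts, 84.2% came from this mouse, and of all Igkv4-74 counts 75.4%. Its IgG2c constant region Ighg2c was the highest of all libraries with 1612 counts, next to 639 in Lepob/+ replicate 3 and 0 to 69 elsewhere. Its Ighg2b was higher still, with 2773 counts.

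WT replicate 3 had Igkv14-126 as its leader with 101 counts, and 56 counts of Ighv11-2. Both segments are known from B-1 cells, a class of B cells found in body cavities and fat that carry much of the natural IgM, and Ighv12-3 and Igkv4-91 are other segments of this kind. These 4 were looked at together after their values were seen. Ighv11-2 had 29, 3, 56 and 3 counts in WT, 0, 0, 215 and 0 in Lepob/+ mice, 4, 32, 2 and 18 in SOD1G93A, and 0 in all 4 SOD1G93A-Lepob/+ libraries. Igkv14-126 had 30, 22, 101 and 29 counts in WT, 8, 0, 571 and 7 in Lepob/+ mice, 20, 82, 6 and 46 in SOD1G93A, and 0, 6, 0 and 0 in SOD1G93A-Lepob/+. For both, Lepob/+ replicate 3 was the highest library. Ighv12-3 had 0 to 12 counts in any library and Igkv4-91 0 to 92, and both were highest in SOD1G93A replicate 2. In WT replicate 3 the whole Igkv4 family, Igkv4-91 included, had 2 counts, so the 4 segments were not high together there.

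**Figure D4:**
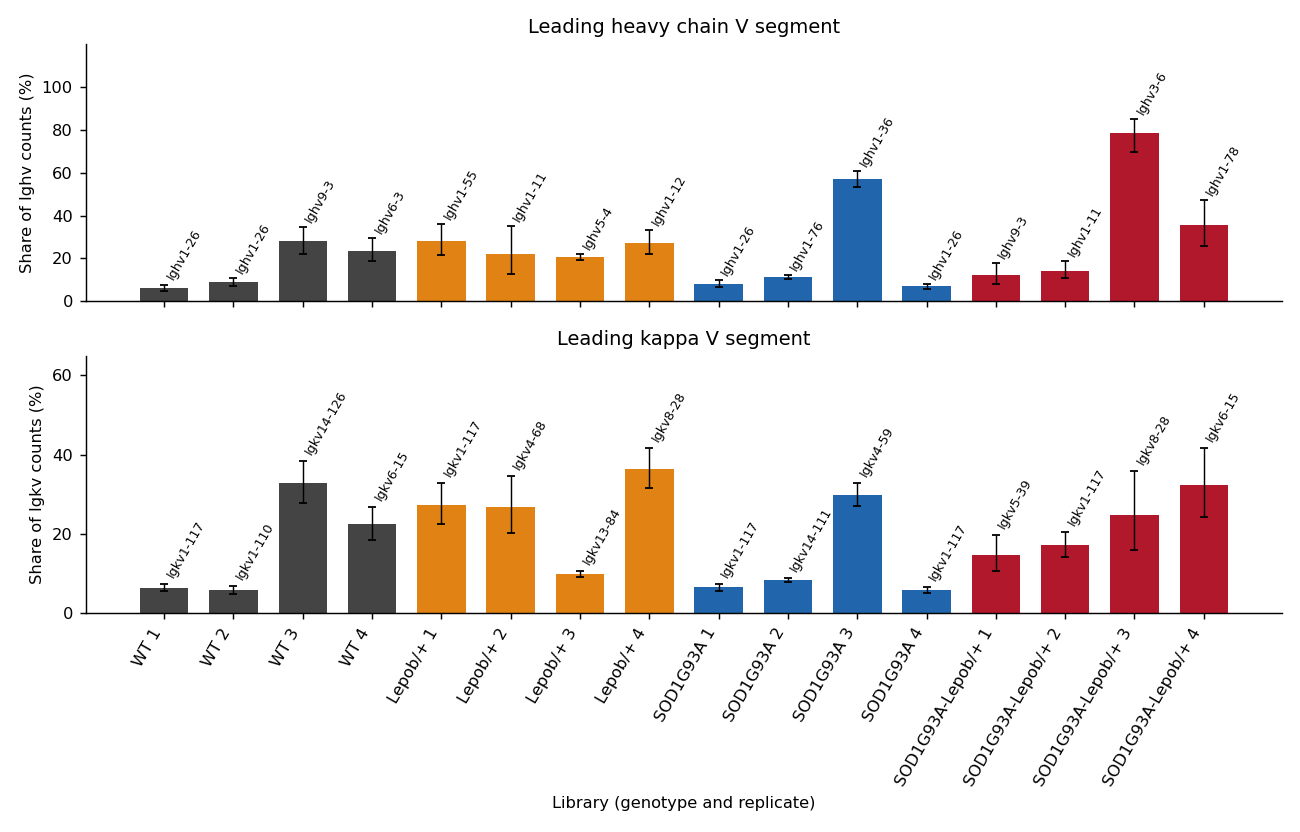
Share of the leading heavy segment in Ighv counts (top) and of the leading kappa segment in Igkv counts (bottom), in % with bars from 0, for each of the 16 libraries coloured by genotype. Error bars are 95% Wilson intervals. The leading heavy segment holds 6.22% to 20.7% in the 6 broad libraries and up to 78.3% in SOD1G93A-Lepob/+ replicate 3, and the leading kappa segment 5.75% to 9.82% in the 6 and 14.6% to 36.4% in the other 10.

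The other leaders of the heavy chain held smaller parts. Ighv1-26 led in WT replicates 1 and 2 with 6.22% and 8.90% of Ighv counts and in SOD1G93A replicates 1 and 4 with 8.24% and 6.97%. Among the libraries with few V counts the heavy leader was Ighv9-3 with 27.9% in WT replicate 3, Ighv6-3 with 23.5% in WT replicate 4, Ighv1-55 with 28.3% in Lepob/+ replicate 1, Ighv1-11 with 22.0% in Lepob/+ replicate 2 and Ighv1-12 with 27.3% in Lepob/+ replicate 4. In SOD1G93A-Lepob/+ replicates 1, 2 and 4 it was Ighv9-3 with 12.1%, Ighv1-11 with 14.3% and Ighv1-78 with 35.6%. Several of these ranks are loose. Ighv9-3 had 57 counts in WT replicate 3 against 56 of Ighv11-2, Ighv1-11 had 11 in Lepob/+ replicate 2 against 10 of Ighv9-4, and Ighv9-3 had 20 in SOD1G93A-Lepob/+ replicate 1 against 19 of Ighv1-39. Ighv1-78 had 26 counts against 12 of Ighv7-1.

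Few segments were shared among the narrow libraries. No member was detected in all 16 libraries, 25 were detected in 11 to 15, 128 in 6 to 10 and 48 in 2 to 5. All 6 broad libraries shared 137 of the 201 members. Of the members, 55 were seen in none of the other 10 libraries, 41 in 1 of them, and 0 in all 10. Igkv1-117 had counts in 15 libraries, Iglv1, Igkv1-110 and Igkv15-103 in 14, and Ighv9-3, Ighv1-26, Igkv1-135, Igkv10-94 and Iglv2 in 13. At the other end, 24 members had more of their counts in 1 library than in the other 15 together.

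Igkv1-117, the most widely shared segment, had 185, 105, 66 and 10 counts in WT, 80, 31, 311 and 6 in Lepob/+ mice, 204, 536, 66 and 249 in SOD1G93A, and 8, 96, 0 and 3 in SOD1G93A-Lepob/+. Averaged over libraries it held 8.65% of Igkv counts, the highest mean share of its locus, followed by Igkv6-15 with 6.24%. Ighv1-26 was highest among heavy segments with 4.54% of Ighv counts. Iglv1 held 49.7% of Iglv counts on average.

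Usage overlap sums, over the 201 segments, the smaller of the shares that 2 libraries give to each segment, and is 100% for identical usage. Among the 15 pairs of broad libraries it was 69.6% to 85.6% with a median of 78.1%. Among the 45 pairs of the other libraries it was 1.07% to 37.6% with a median of 18.1%. Within these, pairs of the same and of different genotypes covered much the same range, with 3.69% to 32.1% in the 10 pairs of the same genotype and 1.07% to 37.6% in the 35 pairs of different genotypes. Pairs of 1 broad and 1 narrow library lay at 13.2% to 45.7%. These overlaps are a description, since pairs share libraries and shares from few counts scatter.

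The segments were also grouped by gene family and by position in the locus. The Ighv1 family, the largest with 53 members and 9700 counts, held 43.1% to 69.0% of Ighv counts in the 6 broad libraries and 21.7% to 76.5% over all 16. The Igkv1 family held 11.3% to 19.0% of Igkv counts in the 6 and 5.53% to 41.4% over all, Igkv4 11.3% to 16% and 0.65% to 34.5%, Igkv6 12.4% to 15.2% and 2.61% to 35.2%, and Igkv8 5.53% to 8.23% and 0.65% to 43.5%. Since the 6 libraries are part of the 16, their range cannot be the wider one. Families of leading segments varied among the broad libraries too, with Ighv5 at 6.00% to 25.3% of Ighv counts, Igkv13 at 0.835% to 11.4% and Igkv14 at 3.94% to 12.1% of Igkv counts. Segments in the part of the Igkv locus nearer to the joining segments (54 of 96 members, split at the middle of the locus) held 46.9% to 54.5% of Igkv counts in the 6 libraries and 12.7% (WT replicate 3) to 73.9% (SOD1G93A-Lepob/+ replicate 3) in the others. For Ighv (60 of 102 members) the share was 41.0% to 66.8% in the 6 libraries, and over all 16 it ran from 28.6% in SOD1G93A replicate 3 to 98.0% in Lepob/+ replicate 2.

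Lambda segments were a minor part of the light chains in nearly every library. Iglv counts made up 6.69%, 10.5%, 15.4% and 13.2% of light chain V counts in WT, 3.31%, 1.39%, 7.56% and 27.5% in Lepob/+ mice, 8.31%, 6.46%, 2.77% and 9.82% in SOD1G93A, and 0%, 6.04%, 60.6% and 4.42% in SOD1G93A-Lepob/+. The 6 broad libraries lay at 6.46% to 10.5%. SOD1G93A-Lepob/+ replicate 1 had no Iglv count among 404 V counts, which allows up to 0.743% of them. Iglv2 had 54 of the 56 lambda counts in WT replicate 3 and 80 of 131 in Lepob/+ replicate 4, while Iglv1 led in the 6 broad libraries.

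V segment and constant region counts went together for kappa and less so for lambda and the heavy chain. There were 36.3 to 48.2 Igkv counts per 100 Igkc counts in the 6 broad libraries and 36.8 to 79.0 in the other 10. For lambda there were 4.98 to 10.5 Iglv counts per 100 lambda constant region counts in the 6 and 0 to 85.5 in the 10. The 10 had only 0 to 131 Iglv counts each. For the heavy chain there were 4.55 to 11.9 Ighv counts per 100 Ighm counts in the 6 and 0.474 to 3.76 in the 10. Ighm itself stayed at 148 to 507 CPM in the 10 libraries, next to 398 to 1174 CPM in the 6. Ighd, the IgD constant region of naive B cells, was at 3.15 to 12.4 CPM against 176 to 572 CPM. SOD1G93A-Lepob/+ replicate 3 had the lowest ratio, with 0.474 Ighv counts per 100 Ighm counts at an Ighm level of 507 CPM.

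**Figure D5:**
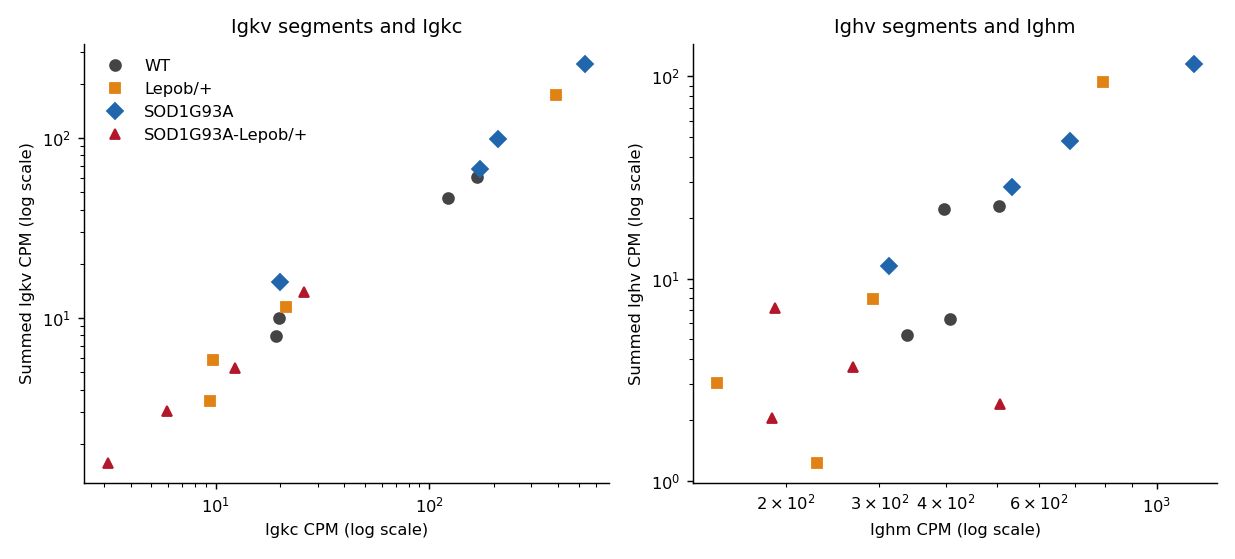
V segment level against constant region level in the 16 libraries (log axes, CPM), coloured by genotype. On the left summed Igkv against Igkc follows 1 line over the whole range, with 36.3 to 79.0 Igkv counts per 100 Igkc counts. On the right summed Ighv against Ighm does not, since Ighm stays at or above 148 CPM where Ighv is at 1.22 CPM.

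B cell markers separated the libraries in the same way as the V segments, but by a larger factor. The list of 11 B cell receptor and mature B cell genes (Cd79a, Cd79b and Ms4a1 among them) summed to 573 to 1823 CPM in the 6 libraries and 6.63 to 27.3 CPM in the other 10. Cd79a, a signalling subunit of the B cell receptor, had 5232 to 15181 counts against 17 to 145. V counts per Cd79a count were therefore 0.559 to 1.14 in the 6 libraries and 4.04 to 42.1 in the 10. The list of 10 plasma cell genes summed to 422.5 to 676.7 CPM in all libraries, a sum made up mostly of Xbp1, Txndc5 and Sdc1, and its members differed. Xbp1, a transcription factor of secretory cells, was at 145 to 307 CPM, the disulphide isomerase gene Txndc5 at 87.9 to 242.5 CPM and the proteoglycan gene Sdc1 at 37.6 to 100.4 CPM, each with overlap between the 6 libraries and the 10. Jchain, which links IgM and IgA, was at 2.79 to 39.7 CPM in the 6 and 1.27 to 6.50 CPM in the 10, and Mzb1, a chaperone of antibody assembly, at 8.58 to 23.3 and 0.133 to 1.17 CPM. Pou2af1, a coactivator at V gene promoters, was at 25.3 to 93.9 and 0.311 to 1.27 CPM. Tnfrsf17 was at 0.351 to 1.27 CPM in the 6 and 0.300 to 2.37 CPM in the 10, and Derl3 at 0.323 to 2.40 and 0.121 to 2.63 CPM. Prdm1 was at 3.12 to 5.49 and 2.13 to 4.71 CPM, and Irf4 at 41.4 to 94.0 and 27.7 to 72.2 CPM. Mzb1 and Pou2af1 thus split as the B cell genes did, while the other genes of the plasma cell list overlapped. The recombinase genes Rag1 and Rag2, which join V segments in immature B cells, had 0 to 5 counts and 0 counts.

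The comparisons between genotypes were made on the raw counts with the quasi-likelihood F test of edgeR, fitted on 19736 genes with adjusted p-values (Benjamini-Hochberg) over all of them. Of the 201 segments, 123 passed the filter on low counts. A segment could pass through the genotype in which it was high, so counts and medians over the 123 are a description and not support for a difference. At an adjusted p under 0.05 edgeR called 0 of the 123 in every comparison, as it called 0 of all genes (0% of those tested). The comparisons share libraries and are not independent of each other. Where an alternative fit is counted at an unadjusted p, the share of all genes in that fit is not given. Those counts show only how far the number of segments moved between fits.

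Leptin haploinsufficiency alone was compared in Lepob/+ against WT. 1 of the 123 segments was higher at an unadjusted p under 0.05 and 0 were lower, where 3.56% of all genes were higher and 0.811% lower. The median log2 fold change was 0.42 for the segments and 0.03 for all genes tested. The segment was Ighv5-4, with 19, 19, 0 and 0 counts in WT and 4, 0, 804 and 0 in Lepob/+, with a log2 fold change of 4.52 and a standard error of 2.06. It rested on Lepob/+ replicate 3, without which its log2 fold change was -2.68. Without that library the median over the 129 segments then tested was -4.22, and 40 were lower at an unadjusted p under 0.05. The sign of the median over the V segments in Lepob/+ thus depended on 1 mouse. Leaving out any 1 of the other libraries gave 0 to 3 segments higher and 0 lower at that p. DESeq2 called 0 segments here.

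The SOD1 transgene was compared in SOD1G93A against WT. 4 of the 123 segments were higher at an unadjusted p under 0.05 and 0 lower (all genes 1.64% and 0.917%), with a median log2 fold change of 1.77 against 0.02 for all genes. This count depended on the filter, with 14 of 201 higher with no filter and 0 of 39 with 1 CPM required in 4 libraries. They were Igkv11-125, Ighv1-58, Ighv1-76 and Ighv9-4. Igkv11-125 had 0 counts in all 4 WT libraries and 5, 19, 34 and 15 in SOD1G93A, at least 21.4-fold higher when the WT group is set at the limit of 3 counts. Ighv1-58 had 4, 0, 0 and 0 counts in WT and 11, 32, 66 and 12 in SOD1G93A, with a log2 fold change of 4.55 and a standard error of 1.39. In both, the 4 SOD1G93A libraries lay above the 4 WT libraries, including SOD1G93A replicate 3, which was low in V segments as a whole. Both were named for their small p in this same comparison, so this is a description and not support. In edgeR the adjusted p of all 4 segments was 0.998. DESeq2 on these 8 libraries called Igkv11-125 (adjusted p = 0.00970) and no other member, where it called 0.0487% of all genes as higher. DESeq2 on all 16 libraries called 0, with an adjusted p of 1.00 for Igkv11-125.

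The other members with that p were carried by fewer libraries. Ighv9-4 had 6, 0, 0 and 0 counts in WT and 5, 20, 27 and 15 in SOD1G93A, so the groups overlapped, and its log2 fold change was 3.25 with a standard error of 1.37. Ighv1-76 had 13, 9, 0 and 3 counts in WT and 10, 577, 0 and 18 in SOD1G93A, and its log2 fold change was 4.57 with a standard error of 1.91. Without overlap between the libraries, 4 segments were higher in SOD1G93A (Igkv11-125, Ighv1-58, Ighv4-1 and Igkv8-21), and 1.37% of all genes were. At an unadjusted p under 0.05 there were 2 such segments without WT replicate 3, WT replicate 4 or SOD1G93A replicate 2, and 7 without Lepob/+ replicate 2 or 3. Iglv1 and Igkv1-117, the widely shared segments, had log2 fold changes of 1.58 (standard error 1.56) and 1.51 (1.27).

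Lowering leptin in the SOD1G93A mice was compared in SOD1G93A-Lepob/+ against SOD1G93A, and here 122 of the 123 segments tested had a lower fitted level, although edgeR called 0 of them. At an unadjusted p under 0.05, 82 of the 123 segments were lower and 0 higher, where 12.3% of all genes were lower and 4.19% higher. By locus these were 35 of 54 Ighv, 45 of 66 Igkv and 2 of 3 Iglv segments. The median log2 fold change was -4.81 for the segments and 0.00 for all genes. The smallest adjusted p was 0.261. The B cell list was lower beside them, with 11 of 11 genes at that p and a median of -6.74. The T cell list was lower too, with 8 of 8. The lymph node list, which holds Glycam1, had 5 of 8 lower and a median of -4.21, while the macrophage list had 0 of 5. Of the 6 libraries high in T cell and lymph node genes, 3 were SOD1G93A and 0 were SOD1G93A-Lepob/+. The part of this split in the lower V segment levels was not tested. By DESeq2, 25 segments were lower at an adjusted p under 0.05 on all 16 libraries (2.57% of all genes lower) and 79 on the 8 libraries compared (6.36% of all genes lower). These were 18 (1.36% of all genes) and 57 (4.87%) without SOD1G93A-Lepob/+ replicate 3.

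For 26 segments all SOD1G93A-Lepob/+ libraries lay below all SOD1G93A libraries, where 3.6% of all genes did. There were also 26 without SOD1G93A-Lepob/+ replicate 3, where 5.62% of all genes did. Ighv6-3 had 13, 56, 39 and 53 counts in SOD1G93A and 0 in each SOD1G93A-Lepob/+ library. This was at least 46.0-fold lower when the latter group is set at 3 counts, a bound for counting error only. Ighv1-58 had 11, 32, 66 and 12 counts against 0 in all 4, at least 34.6-fold lower. Igkv6-32 had 75, 178, 30 and 85 counts against 0 in all 4, at least 105.1-fold lower. Each of these was present in SOD1G93A replicate 3 too, as a lack of overlap with 0 counts requires. Iglv3 had 48, 229, 0 and 137 counts against 0 in all 4, at least 118.3-fold lower, so its groups met at 0. Without SOD1G93A-Lepob/+ replicate 3 the bounds of Ighv6-3, Ighv1-58, Igkv6-32 and Iglv3 were 33.7, 25.3, 77.0 and 86.6, since fewer counts stand behind a 0.

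The most widely detected segments still had counts in SOD1G93A-Lepob/+, as their wide detection requires. Igkv1-117 had 204, 536, 66 and 249 counts in SOD1G93A and 8, 96, 0 and 3 in SOD1G93A-Lepob/+, and its log2 fold change was -3.13 with a standard error of 1.36. Igkv1-135 had 196, 480, 96 and 181 against 4, 41, 5 and 3 counts, a log2 fold change of -3.98 with a standard error of 1.76, and the groups did not overlap. Igkv1-110 had 149, 393, 26 and 199 against 6, 17, 0 and 6 counts, and Igkv15-103 45, 103, 34 and 43 against 16, 9, 0 and 11, also without overlap. Iglv1 had 191, 408, 16 and 258 against 0, 21, 106 and 2 counts, a log2 fold change of -2.70 with a standard error of 1.64. Its highest SOD1G93A-Lepob/+ library was the one without Xist counts. The adjusted p-values of Igkv1-117, Igkv1-135 and Iglv1 in edgeR were 0.281, 0.284 and 0.411. Ighv3-6 and Ighv9-3 had -0.99 (standard error 1.81) and -1.71 (1.48), and for these the SOD1G93A and SOD1G93A-Lepob/+ libraries overlapped. Without SOD1G93A-Lepob/+ replicate 3, 69 of 144 segments were lower at an unadjusted p under 0.05 with a median of -4.92, and without SOD1G93A replicate 2, 50 of 124.

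Against WT, SOD1G93A-Lepob/+ iWAT had 21 of the 123 segments lower and 0 higher at an unadjusted p under 0.05 (all genes 3.52% and 1.22%), with a median log2 fold change of -3.22. All SOD1G93A-Lepob/+ libraries lay below all WT libraries for 6 segments (Igkv9-124, Ighv11-2, Igkv4-74, Ighv6-3, Igkv17-127 and Igkv14-126), as they did for 1.66% of all genes. Ighv6-3 had 16, 80, 8 and 56 counts in WT and 0 in all 4, at least 52.1-fold lower, and Ighv11-2 29, 3, 56 and 3 against 0, at least 29.6-fold lower. Both were present in all 4 WT mice, the narrow ones included, as a lack of overlap with 0 counts requires. DESeq2 called 12 segments lower on all 16 libraries (0.14% of all genes) and 10 on the 8 compared (1.48%). Without SOD1G93A-Lepob/+ replicate 3 it called 12 (0.157%) and 5 (0.871%), 6 segments lay apart (2.97% of all genes), the median was -3.12, and the bounds of Ighv6-3 and Ighv11-2 were 38.1 and 21.7. Single libraries moved the edgeR count of segments lower at an unadjusted p under 0.05. It was 8 without WT replicate 1, 11 without WT replicate 2, 10 without SOD1G93A-Lepob/+ replicate 1 and 9 without its replicate 3 or 4. It was 33 without WT replicate 3 or SOD1G93A replicate 3, and 42 without Lepob/+ replicate 3.

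Against Lepob/+, SOD1G93A-Lepob/+ iWAT had 43 of the 123 segments lower and 0 higher at an unadjusted p under 0.05 (all genes 6.28% and 1.96%), with a median log2 fold change of -3.57. For 0 segments did the libraries of the genotypes lie fully apart, where 1.15% of all genes were lower and 1.2% higher without overlap. Igkv4-53 had 48, 0, 45 and 24 counts in Lepob/+ and 0 in all 4 SOD1G93A-Lepob/+ libraries, at least 39.7-fold lower, and was the member DESeq2 called on the 8 libraries (0.0693% of all genes lower). On all 16 libraries DESeq2 called 12 segments, where 0.199% of all genes were lower. Ighv11-2, at 215 counts in Lepob/+ replicate 3 and 0 in the other 7 libraries, was at least 73.0-fold lower through that 1 mouse. Without Lepob/+ replicate 3 the median of the segments was 0.00, and 6 were lower and 4 higher at an unadjusted p under 0.05. Without SOD1G93A-Lepob/+ replicate 1, 3 or 4 the number lower was 20, 20 and 21 of 144. Without replicate 3 the median was -3.81, 0 segments lay apart (2.24% of all genes were lower), the bounds of Igkv4-53 and Ighv11-2 were 29.1 and 53.5, and DESeq2 called 11 segments on 15 libraries (0.21% of all genes) and 0 on the 7 compared. edgeR on the 8 compared libraries alone tested 8 segments, of which 0 were lower at an unadjusted p under 0.05.

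The interaction term asks whether both mutations together gave another level than the sum of their separate log2 changes. At an unadjusted p under 0.05, 57 of the 123 segments had a negative term and 0 a positive one (all genes 5.82% and 2.16%), with a median of -5.27 against -0.09 for all genes and a smallest adjusted p of 0.564. DESeq2 called 11 segments with a negative term (0.169% of all genes), and 11 without SOD1G93A-Lepob/+ replicate 3 (0.275%). Without Lepob/+ replicate 3 the median was -1.40 and 7 segments had a negative term at that p, so that the size of the interaction depended on the same mouse. Without SOD1G93A replicate 2 there were 37, and without SOD1G93A-Lepob/+ replicate 3 there were 54 of 144 with a median of -5.57.

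Genes that act around the V segments were read from lists by their counts at an unadjusted p under 0.05 in SOD1G93A-Lepob/+ against SOD1G93A. Of 11 constant region genes tested, 10 were lower (median log2 fold change -6.23), and all 11 B cell genes were. Of the factors that act on V gene promoters, such as Pou2f2 and Pou2af1, 3 of 6 were lower (median -1.77), and of the genes of V(D)J recombination and pre-B cells 2 of 3 tested. The plasma cell list had 2 higher and 2 lower of 10 (median -0.27), and the list for germinal centres and class switching 0 of 8 either way. edgeR called 0 of these genes at an adjusted p under 0.05. White adipocyte genes had 1 of 7 higher and 0 lower, and mammary epithelium genes 3 of 5 higher.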

How the data were processed

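Total RNA of iWAT was extracted with Qiazol and a lipid tissue kit. The labels name the NEBNext Ultra library kit and the paper a TruSeq stranded mRNA kit, so the kit is uncertain. Paired 100-base reads were trimmed with fastp (Phred 30, minimum length 30), aligned to mm10 with HISAT2 2.1.0 and counted with featureCounts 2.0.2 as uniquely mapped reads. The deposited values, per the file headers, are raw counts per Ensembl gene for the 16 libraries, and the authors did not normalize them. The strand setting and annotation release are not given in the sources used here.

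Symbols came from GENCODE M21 (54723 of 54752 IDs). Counts were tested with edgeR 4.0.16 (TMM, filterByExpr with a minimum of 10 counts and 15 in total, robust quasi-likelihood F test, limma 3.58.1, R 4.3.3) on all 16 libraries with genotype as the only factor. DESeq2 1.42.0 was an alternative, beside other scaling, filters, a replicate block and leaving out each library. DESeq2 without the library with no Xist counts was added after seeing the data. The edgeR steps were tested on simulated counts. CPM used TMM library sizes. Repertoire measures were computed on raw V counts and given with no test. Shares have 95% Wilson intervals. Sequence windows were compared within the GRCm38 V exons.

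The text names the leading segment of each library, the 3 segments of each locus with the highest mean share, up to 4 segments with the smallest p in each comparison, up to 6 called by a tool, those at the limit of 10 counts, and at most 4 genes of each list, beside those said to be chosen after their values were seen. Txndc5, Tnfrsf17, Derl3, Prdm1, Irf4 and the IgG constant region genes fall outside this rule and were named with their values seen. The members and lists were chosen with earlier results of these data known. 1 gene of the B cell list is not reported here and was left out of its values.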

Additional observations from a re-analysis of the deposited data

Results flagged for a closer look

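Within each genotype, the highest and the lowest of the 4 libraries were set against the others, by the gap to the nearest library over the whole range. Of 77 such sets (4 repertoire measures and the CPM of the leading and most widely used segments), 27 were flagged as standing apart at Dixon's limit, where chance flags about 1 in 20 sets of like values. That rate does not apply to most of these sets, since the segments were chosen for leading a library or being widely used, those of 1 library are not independent, and a segment with counts in 1 of the 4 libraries stands apart by construction. The flags are therefore a description. 15 flags fell on Lepob/+ replicate 3, 5 on SOD1G93A-Lepob/+ replicate 2, 4 on SOD1G93A replicate 3, and 1 each on WT replicate 3, SOD1G93A replicate 2 and SOD1G93A-Lepob/+ replicate 3.

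Lepob/+ replicate 3 was far above the other Lepob/+ libraries in summed V level (281.7 CPM), effective number (92.3) and detected segments (194), and far below them in the share of its leader (6.93%). It was the highest of its genotype for Ighv1-26 (4.27 CPM), Ighv1-36 (0.243 CPM), Ighv3-6 (1.75 CPM), Ighv5-4 (19.5 CPM), Ighv9-3 (3.33 CPM), Igkv1-135 (5.78 CPM), Igkv14-111 (5.66 CPM), Igkv14-126 (13.9 CPM), Igkv5-39 (2.67 CPM), Igkv6-15 (5.61 CPM) and Iglv3 (2.82 CPM).

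SOD1G93A replicate 3 was the opposite within its genotype, with the lowest effective number (17.7) and number of detected segments (59) and the highest share of its leader (23.8%), Ighv1-36 at 6.60 CPM. In SOD1G93A replicate 2, Igkv14-111 stood apart at 21.3 CPM. In WT replicate 3, Igkv14-126 did at 2.61 CPM.

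In SOD1G93A-Lepob/+ replicate 2, Igkv1-117 (2.40 CPM) and Igkv1-135 (1.02 CPM) were above the other libraries of the genotype, and Ighv5-4 (0.0749 CPM), Igkv14-111 (0.0749 CPM) and Igkv14-126 (0.150 CPM) were flagged on 3, 3 and 6 counts against 0 in the others. In SOD1G93A-Lepob/+ replicate 3, the library without Xist counts, Ighv3-6 stood apart at 1.88 CPM.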

How the results depend on the processing

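The choice of test decided whether any V segment was called. edgeR called 0 segments in all 6 comparisons and in each of its 125 alternative fits, which changed the scaling or the filter, added a replicate block, took only the compared genotypes, or left out 1 library. DESeq2 on all 16 libraries called 25 segments in SOD1G93A-Lepob/+ against SOD1G93A, 12 against WT, 12 against Lepob/+ and 11 for the interaction. DESeq2 on the compared genotypes called 79, 10 and 1 in the same 3 comparisons and 1 in SOD1G93A against WT. In fits chosen after seeing the data, without SOD1G93A-Lepob/+ replicate 3, DESeq2 called 18, 12, 11 and 11 segments on 15 libraries in the order above, and 57, 5 and 0 on the compared genotypes. Of 942 values of named segments under alternatives, 863 kept direction and side of the threshold, 76 passed it under DESeq2, and 3 reversed, all without Lepob/+ replicate 3. These were Ighv5-4 in Lepob/+ against WT (-2.68, against -2.68 to 5.13 over the libraries left out), Igkv13-84 in the same comparison (-2.81, against -2.81 to 5.99) and the interaction term of Ighv11-2 (0.81, against -9.13 to 0.81). With no filter, 124 of 201 segments were lower at an unadjusted p under 0.05 in SOD1G93A-Lepob/+ against SOD1G93A, 33 against WT and 66 against Lepob/+, next to 82, 21 and 43 of 123. With 1 CPM required in 4 libraries these were 28, 8 and 13 of 39, and with edgeR on the compared genotypes alone 25 of 39, 3 of 17 and 0 of 8. In SOD1G93A against WT 14 of 201 were higher at that p with no filter, 0 of 39 with 1 CPM required, 4 of 106 on the compared genotypes and 20 of 201 by DESeq2 on these, next to 4 of 123. Some fits gave no value, since both groups were then at 0. The share of all genes at that p is not given for these fits or for the replicate block below. Their counts therefore show only how far the number of segments moved.

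The genotype means of the repertoire measures stayed within 1 SD in 110 of 120 alternatives. Leaving out 1 of the 4 libraries of a genotype cannot move its mean by 1 SD, so such alternatives could not fail. The count is therefore no measure of stability. At equal depth the detected segments of SOD1G93A averaged 73.7, and with at least 10 counts required those of SOD1G93A-Lepob/+ averaged 13. As a share of its own locus the leader averaged 28.0% in WT, 27.8% in Lepob/+, 31.8% in SOD1G93A mice and 41.0% in SOD1G93A-Lepob/+. The locus of the leader differed between libraries, and Iglv has only 3 members. In SOD1G93A-Lepob/+ replicate 3 the leader Iglv1 held all 106 Iglv counts, which raises the mean of that genotype. The 5 most abundant segments together held 32.3%, 47.1%, 28.0% and 49.6%. The last of these means came from 31.7%, 31.8%, 81.9% and 53.2% in SOD1G93A-Lepob/+ replicates 1 to 4. Neither mean is given without replicate 3 of this genotype. The effective number per exon length and within Ighv or Igkv alone were alternatives chosen after seeing the data.

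Replicate numbers did not pair the libraries, since 5 of 24 same-numbered pairs had a correlation of deviations over 0.1 and 8 under -0.1. With the replicate block edgeR called 0 segments, and 70, 6, 5 and 16 were lower at an unadjusted p under 0.05 in SOD1G93A-Lepob/+ against SOD1G93A, WT and Lepob/+ and for the interaction. The low V counts of 10 libraries limit what their shares can show.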
